A study of Mus musculus with 6 samples.

Results

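The genes described here fold proteins in the endoplasmic reticulum (ER) or run the unfolded protein response, and they were followed across 6 RNA sequencing libraries of the mouse pituitary. They are 38 named genes of the 50348 gene names in the deposited tables, chosen by function, with earlier results of these data known. A gene's value is the sum of the FPKM (read fragments per kilobase of RNA, set against all those mapped in a library) of its annotated transcripts. All 38 are listed in 5 of the tables. The table of the Ghcre cells ends within chromosome 5 and lists 27 of them.

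Each group is 1 library, so no difference below has a replicate check and no p-value is given. A sorted library holds the fluorescent cells of pooled glands in which a Cre driver had switched on a yellow fluorescent reporter at the ROSA locus. The adult pools, of mice at 7 weeks, held 42 Tshbcre, 12 Ghcre and 7 Lhbcre glands, and the pool of postnatal day 7 (P7) held 5 Tshbcre glands. The comparison libraries came from unsorted nontransgenic glands, 1 adult gland, whose age in weeks no label gives, and 8 P7 glands. Drivers of this kind mark every cell that has ever used the promoter, so a sorted pool can hold more than 1 hormone cell type. The adult Tshbcre library had all 4 thyrotrope markers and all 5 gonadotrope markers at least 2-fold above the whole gland. Gh, Prl and Lhb have no value for Ghcre, Gh and Prl have none for Lhbcre, and Gh has none for the adult whole gland. Gene names with a transcript whose deposited FPKM status was not OK were given no value, which removed 6, 11 and 6 names in these libraries. Hormones called listed below are those with a value. The Ghcre cells had Cga at 18.7 and Pomc at 27.9 scaled FPKM, against 805 and 1556 in the adult whole gland. Xist, expressed from the inactive X chromosome, had a level of 29.4 in Lhbcre cells, against 0.106 for adult Tshbcre and 0.0599 for the whole adult gland. The Y-linked gene Eif2s3y had levels of 0.50, 6.17 and 10.3 in that order, so lineage and sex cannot be told apart for Lhbcre. Xist was at 62.6 in P7 Tshbcre cells and 17.0 in the P7 whole gland, and Eif2s3y at 6.11 and 5.32. Both P7 libraries thus held transcripts of each sex, and sex cannot be told apart from age or from the sort at P7 either. For Ghcre cells Xist and Eif2s3y have no value. FPKM was divided by a scale factor per library, set by the median ratio over 5795 genes at 1 FPKM or more in every table, and is called scaled FPKM below. In bulk RNA, fewer cells of a type and less RNA per cell cannot be told apart.

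Proteins bound for secretion enter the ER through the Sec61 channel, where Hspa5 (BiP) and its co-chaperones hold them, calnexin and calreticulin retain those with sugar chains, and protein disulfide isomerases form their cysteine bridges. Proteins that fail to fold are pulled out and degraded through the Sel1l and Syvn1 complex. When unfolded protein builds up, the membrane sensors IRE1 (Ern1), PERK (Eif2ak3) and ATF6 raise the transcription of chaperones or slow translation. Pituitary endocrine cells make hormone as a main product. Thyrotropin, lutropin and follitropin are glycosylated and share the Cga chain, while growth hormone and prolactin are single chains.

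Several of these genes carry, near their start, the ER stress response element (ERSE) to which ATF6 binds together with NF-Y. It was searched as CCAAT and CCACG with 9 bases between them, on either strand, from 250 bases before to 50 bases after the RefSeq start of each gene (GRCm38.p6). Of the 33 members with a RefSeq promoter, 9 held it (27.3%), against 37 of all 27025 genes (0.137%). The 9 are Hspa5, Hsp90b1, Calr, Canx, Pdia6, Dnajc3, Creld2, Syvn1 and Derl3. The short form, ERSE-II, was searched as ATTGG and CCACG with 1 base between them and was found in Herpud1 and Dnajb11 and in 12 genes in all (0.0444%). The XBP1 core TGACGTGG was in 0 members and in 0.714% of all genes. The ATF4 core TGATGNAA was in Trib3 and Herpud1 and in 4.51% of all genes. The windows of the most abundant chaperones, of the ubiquitin ligase Syvn1 and of Herpud1 are shown in the direction of transcription, with the matched motif from its first to its last base in capitals. A match is a description of the letters and not a measured binding site.
Hspa5 ERSE, chr2:34772010-34772058, + strand: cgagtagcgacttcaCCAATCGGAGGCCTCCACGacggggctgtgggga
Hsp90b1 ERSE, chr10:86705518-86705566, - strand: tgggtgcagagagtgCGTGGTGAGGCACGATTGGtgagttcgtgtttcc
Calr ERSE, chr8:84847060-84847108, - strand: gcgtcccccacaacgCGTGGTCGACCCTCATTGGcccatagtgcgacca
Canx ERSE, chr11:50325785-50325833, - strand: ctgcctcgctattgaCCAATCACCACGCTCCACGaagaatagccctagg
Pdia6 ERSE, chr12:17266476-17266524, + strand: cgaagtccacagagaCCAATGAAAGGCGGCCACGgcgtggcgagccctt
Syvn1 ERSE, chr19:6046517-6046565, + strand: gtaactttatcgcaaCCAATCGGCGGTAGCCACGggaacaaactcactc
Herpud1 ERSE-II, chr8:94386362-94386402, + strand: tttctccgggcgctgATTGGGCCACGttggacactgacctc

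The soluble chaperones and the lectin and disulfide enzymes were the most abundant members. Hspa5, the Hsp70 of the ER lumen, was at 227 scaled FPKM in adult Tshbcre cells, 189.8 in Ghcre cells, 197 in Lhbcre cells, 174 in the adult whole gland, 226 in P7 Tshbcre cells and 138 in the P7 whole gland. The sorted libraries were all above the whole gland of their age, and the highest level was 1.64 times the lowest. The bounds deposited with the FPKM, summed over transcripts, carry no spread between samples, only that of counting and sharing out reads in 1 library. They ran from 217 to 237 for adult Tshbcre cells and from 132 to 145 for the P7 whole gland. Hsp90b1 (GRP94) was at 167, 120.3, 169, 108, 159 and 95.5 in the same order. Both were closer between the adult and P7 Tshbcre libraries than between either of these and its whole gland. With FPKM as deposited, in place of scaled FPKM, the Ghcre differences from the whole gland turned to -0.42 for Hspa5 and -0.39 for Hsp90b1 on the log2 scale and that of Hspa5 in Lhbcre cells to -0.01.

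Calr, calreticulin, was at 189.95 scaled FPKM in adult Tshbcre cells, 302 in Lhbcre cells, 123 in the adult whole gland, 244 in P7 Tshbcre cells and 123 in the P7 whole gland. The 3 sorted libraries that list it were above both whole glands. Its membrane-bound relative Canx stayed between 43.9 and 61.3 in all 6 libraries. Pdia4, a disulfide isomerase with extra thioredoxin domains, was at 36.9, 62.1, 34.3, 32.8 and 27.5 in the order used for Calr, and the Lhbcre library alone stood apart. Pdia3 (ERp57), which works with calnexin and calreticulin, was at 178 in adult and 185 in P7 Tshbcre cells and between 87.3 and 129.7 in the other 4 libraries. Its locus overlaps Catsper2, and no source used here gives the strand of the libraries. P4hb had another order, with its lowest level, 58.9, in adult Tshbcre cells and its highest, 114, in Ghcre cells. Pdia6 ran from 40.4 to 63.0, and Ero1a, the oxidase that recharges the isomerases, from 3.08 to 6.04.

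Among the other chaperones, Manf, a secreted ER stress factor that binds Hspa5, ran from 52.0 in the P7 whole gland to 88.9 in P7 Tshbcre cells. Hyou1, the nucleotide exchange factor of Hspa5, ran from 18.2 to 53.0 and was lower in each of the 3 sorted libraries that list it than in the whole gland of the same age. With transcripts assembled in the locus without a gene name added by length, it was instead higher in Lhbcre cells, at 61.7 against 53.0, and in P7 Tshbcre cells, at 42.1 against 30.4. Dnajb9 (ERdj4) ran from 12.3 to 26.5 and Dnajb11 (ERdj3) from 9.87 to 14.4. Dnajc3 (p58IPK) ran from 9.19 to 27.6, with the highest level in adult Tshbcre cells. Sdf2l1, a partner of Dnajb11, was at 16.0 in adult Tshbcre, 16.2 in Ghcre, 19.7 in Lhbcre and 16.4 in P7 Tshbcre cells, and at 12.6 and 5.72 in the adult and P7 whole glands. Creld2 ran from 4.55 in P7 Tshbcre cells to 16.3 in Ghcre cells. The translocon members were narrow: Sec61a1, the pore, from 25.0 to 37.8, Sec61b from 26.4 to 35.6 and Ssr1 from 11.6 to 20.8. Ssr4, another subunit of the translocon-associated complex, was the exception at 61.7 in Lhbcre and 64.0 in P7 Tshbcre cells, against 31.5 in adult Tshbcre cells and 23.7 and 22.9 in the whole glands. Ssr4 lies on the X chromosome, and Xist was also highest in the Lhbcre and P7 Tshbcre libraries, at 29.4 and 62.6. For Ssr4, sex therefore cannot be told apart from lineage or age in the comparisons below.

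**Figure D1:**
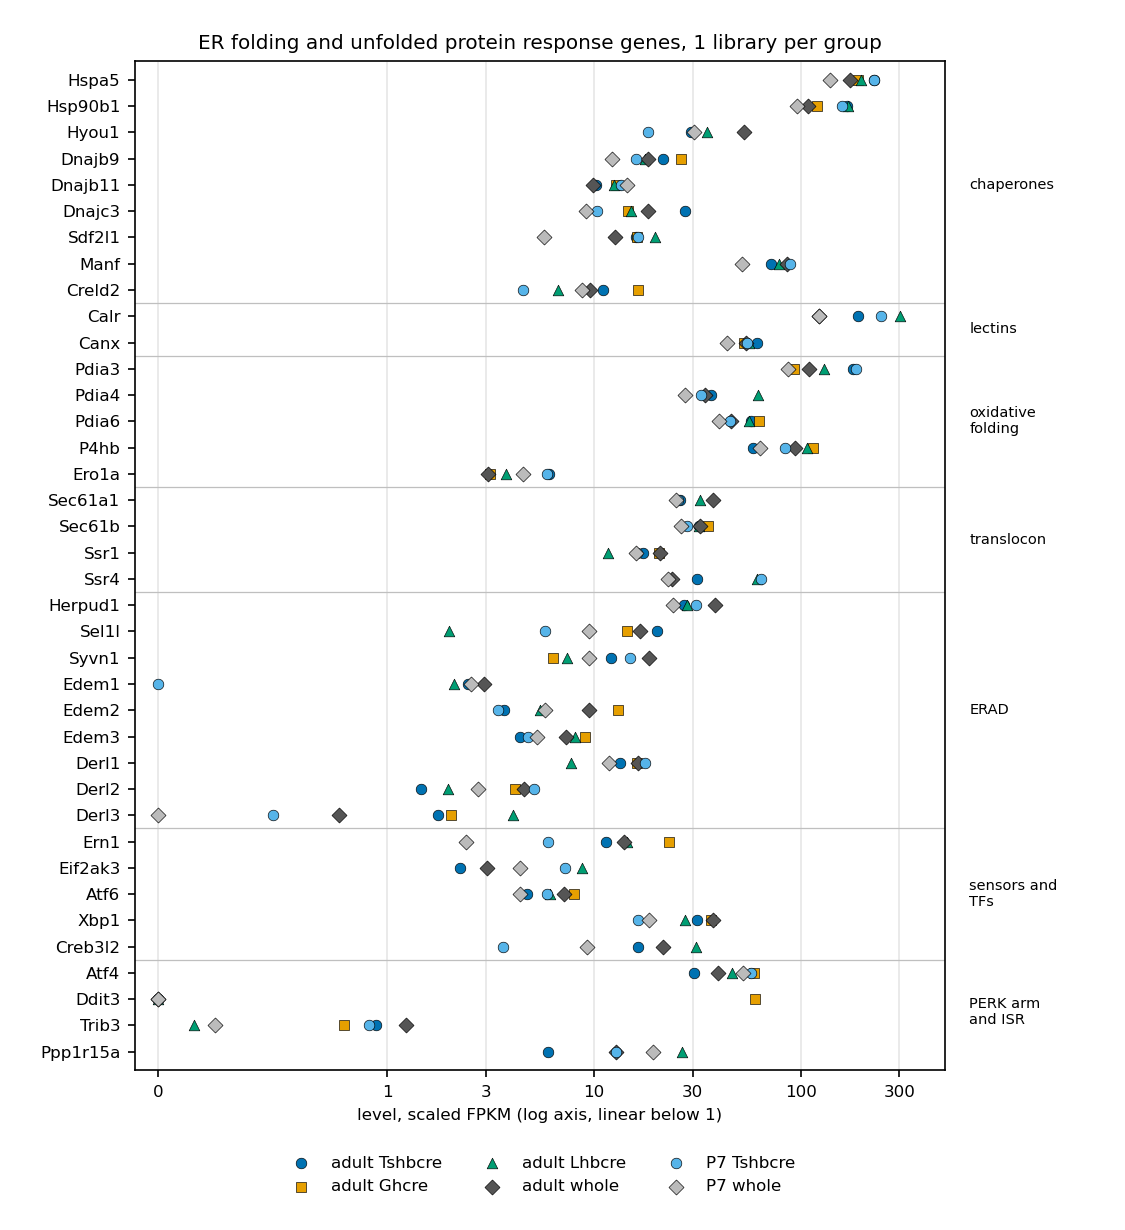
Levels of the 38 members in scaled FPKM on a log axis (linear below 1), 1 row per gene grouped by role and 1 point per library. Hspa5, Hsp90b1, Calr, Pdia3 and P4hb are the only members above 100 in any library, and 18 members have their lowest level in the P7 whole gland (light diamonds).

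The degradation genes were lower and more scattered. Sel1l, the adaptor of the retrotranslocation complex, was at 20.2 scaled FPKM in adult Tshbcre cells, 14.4 in Ghcre, 1.98 in Lhbcre, 16.6 in the adult whole gland, 5.80 in P7 Tshbcre cells and 9.41 in the P7 whole gland. The Lhbcre value stood far below the others in the annotated transcripts, but transcripts assembled in the locus without a gene name raised it to 14.8 when added in proportion to their length, against 18.0 in the adult whole gland. Syvn1 (HRD1), the ligase that Sel1l anchors, was at 12.1, 6.35, 7.40, 18.5, 14.9 and 9.45, and its locus overlaps Mrpl49 and Mir6988. Herpud1, a scaffold of this complex, ran from 24.2 to 38.3. The mannosidase-like genes Edem1, Edem2 and Edem3 reached at most 2.93, 13.0 and 9.05, and Edem1 is listed at 0 in P7 Tshbcre cells. An FPKM of 0 can also be a failed estimate. Derl1 ran from 7.72 to 17.7. Derl2 ran from 1.45 to 5.11. Derl3, the derlin of professional secretory cells, was at 4.05 in Lhbcre cells, at 0.503 to 2.03 in 4 libraries and listed at 0 in the P7 whole gland. The plasma and B cell marker genes, whose cells are rich in Derl3, summed to at most 0.650 over the 4 genes listed in the 5 longer tables.

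The sensors and transcription factors had the widest range of the 7 roles over the 5 tables that list all members, 2.27-fold between their lowest and highest sum. Ern1, the gene of IRE1, was at 11.4 scaled FPKM in adult Tshbcre cells, 23.0 in Ghcre cells, 14.5 in Lhbcre cells, 14.0 in the adult whole gland, 5.99 in P7 Tshbcre cells and 2.39 in the P7 whole gland. All 4 adult libraries were above both P7 libraries, also with transcripts lacking a gene name added by length, and the highest level was 9.61 times the lowest. Eif2ak3 (PERK) was at 2.26 in adult Tshbcre cells, 8.78 in Lhbcre cells, 3.04 in the adult whole gland, 7.21 in P7 Tshbcre cells and 4.38 in the P7 whole gland. With nameless assembled transcripts added by length it was at 14.5 in the adult whole gland and 12.5 in adult Tshbcre cells, above the 8.78 and 10.7 of the Lhbcre and P7 Tshbcre cells, so its order depends on how those transcripts are assigned. Atf6 was at 4.72, 8.01, 6.09, 7.13, 5.93 and 4.38 in the order of Ern1, with no 2-fold step between any libraries. With nameless transcripts added by length it was at 15.9, 24.7, 7.21, 16.4, 13.2 and 7.68, and the Lhbcre cells and the P7 whole gland were then lowest. Creb3l2, a relative of Atf6 that drives secretory capacity, ran from 3.63 in P7 Tshbcre cells to 31.2 in Lhbcre cells, but with nameless transcripts added it was at 83.0 in P7 Tshbcre cells.

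Xbp1, the transcription factor made active when IRE1 cuts an intron out of its mRNA in the cytoplasm, was at 31.6, 36.7, 27.5, 37.7, 16.3 and 18.5 scaled FPKM in the order of Ern1, and all 4 adult libraries were again above both P7 libraries. The 26-base intron is shown in capitals within the Xbp1 transcript of GENCODE M21, with 20 bases on each side. A script placed it between the paired stem loops that IRE1 cuts, where its removal lengthens the open reading frame from 267 to 371 codons.
Xbp1 intron: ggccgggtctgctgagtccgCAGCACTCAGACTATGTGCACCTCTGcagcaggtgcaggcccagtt
The deposited tables hold a RefSeq transcript of 2221 bases without these bases and one of 2247 with them. The spliced form was at 22.2 scaled FPKM in adult Tshbcre cells, 36.7 in Ghcre, 27.5 in Lhbcre, 29.9 in the adult whole gland, 12.1 in P7 Tshbcre cells and 18.5 in the P7 whole gland. The unspliced form was at 9.38, 7.84 and 4.26 in the adult Tshbcre, adult whole gland and P7 Tshbcre libraries and listed at 0 in the other 3. The spliced share was therefore 70.3%, 79.2% and 73.9% in the first 3 and 100% where the unspliced form is at 0. The transcripts differ only by these bases, so the split rests on the fragments that cover them, and no source used here says whether fragments across the join could be aligned.

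**Figure D2:**
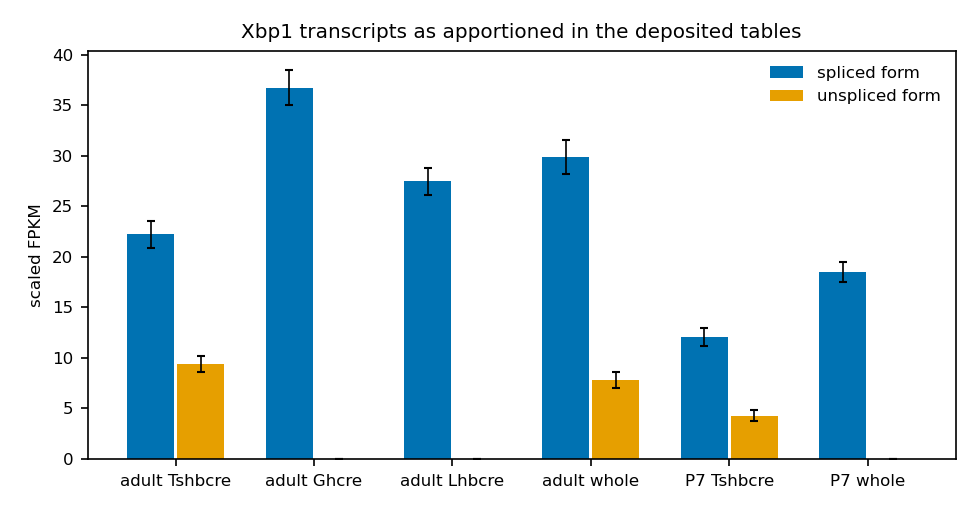
Scaled FPKM of the spliced and unspliced Xbp1 transcripts in the 6 libraries, with the deposited bounds of each transcript as error bars. The spliced form is the larger in every library, and the unspliced form is listed at 0 in the Ghcre, Lhbcre and P7 whole gland libraries.

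The integrated stress response downstream of PERK is represented by 4 genes with different patterns. Atf4, whose translation rises when eIF2 is phosphorylated, was at 30.5 scaled FPKM in adult Tshbcre cells, 59.6 in Ghcre, 46.6 in Lhbcre, 39.8 in the adult whole gland, 57.6 in P7 Tshbcre cells and 52.4 in the P7 whole gland. Adult Tshbcre cells were lowest. Ppp1r15a (GADD34), which restores translation, was also lowest there, at 5.99, and was at 26.6 in Lhbcre cells, 12.7 in both the adult whole gland and P7 Tshbcre cells, and 19.4 in the P7 whole gland. Trib3, an inhibitor that Atf4 induces, reached at most 1.23. Ddit3 (CHOP), the factor tied to death under prolonged stress, is listed at 0 in 5 libraries and at 59.9 in Ghcre cells. That value sits on 1 predicted transcript of 2333 bases in a locus that overlaps Mars1 and Mbd6, while its 3 shorter transcripts are listed at 0 there too. The 0 of the other libraries does not show that the gene is silent, since transcripts without a gene name lie in the locus. With these added by length it was at 5.60 in adult Tshbcre, 8.26 in Lhbcre, 0.980 in the adult whole gland and 2.11 in P7 Tshbcre cells. The immediate early genes, which rise during tissue handling, summed over the 7 genes in all tables to 267 in adult Tshbcre cells, 383 in Ghcre cells, 373 in Lhbcre cells, 394 in the adult whole gland, 496 in P7 Tshbcre cells and 532 in the P7 whole gland. Their part in the levels of Atf4 and Ppp1r15a was not tested.

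Hormone transcripts differed more between libraries than ER transcripts did, by an amount that depends on which hormones are listed. The 4 hormone genes listed in every table (Pomc, Cga, Tshb and Fshb) summed to 8810 scaled FPKM in adult Tshbcre cells, 50.5 in Ghcre, 4185 in Lhbcre, 2574 in the adult whole gland, 13159 in P7 Tshbcre cells and 2324 in the P7 whole gland. The 27 ER members in every table summed to 1028, 1032, 966, 886, 1004.5 and 689 in the same order, a range of 1.50-fold. The 7 granule cargo and processing genes in every table, such as chromogranins and prohormone convertases, summed to 3637, 918, 2124, 720.5, 2969 and 562. Ghcre cells cannot be placed by hormone here, since their own hormone has no value. All 7 hormones are listed in 3 tables, where they summed to 33070 in adult Tshbcre cells, 18329 in P7 Tshbcre cells and 8753 in the P7 whole gland, a 3.78-fold range. All 38 members summed to 1468, 1533 and 1029 there, a 1.49-fold range. This gave 44.4, 83.6 and 118 scaled FPKM of ER transcripts per 1000 of hormone. Gh and Prl, the hormones of other lineages than the sorted one, made up 64.6% of the hormone sum in adult Tshbcre cells, 21.2% in P7 Tshbcre cells and 69.9% in the P7 whole gland. Per 1000 of the glycoprotein hormone genes Cga, Tshb, Lhb and Fshb the members were at 128, 107 and 852, so the order of the Tshbcre libraries depends on which hormones are counted.

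Set against the whole gland of the same age, P7 Tshbcre cells had 11.9 times the summed glycoprotein hormone genes, 4.49 times the 11 granule genes and 1.49 times the 38 members. Within the members the ratio was 1.80 for the lectin chaperones, 1.58 for oxidative folding, 1.51 for the chaperones and 1.48 for the translocon. It was 1.17 for degradation, 1.01 for the sensors and 0.989 for the PERK arm. Adult Tshbcre cells had 6.92 times the glycoprotein hormones of the adult whole gland and 1.11 times the 38 members, with lectin chaperones at 1.42 and degradation at 0.755. Lhbcre cells had 3.67 times these hormones and 1.24 times the members, with lectin chaperones at 2.02 and degradation at 0.582. The lectin group is 2 genes and its ratio follows Calr, since Canx alone gave 1.26 in P7 Tshbcre, 1.12 in adult Tshbcre and 1.03 in Lhbcre cells. With nameless transcripts added by length the degradation ratio at P7 was 1.68, level with the chaperones at 1.68 and the translocon at 1.67, and the sensors, through Creb3l2, were at 2.57. The degradation ratio was then 0.828 in adult Tshbcre cells and 0.742 in Lhbcre cells. Adult Tshbcre and Lhbcre cells are set against the same whole gland.

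**Figure D3:**
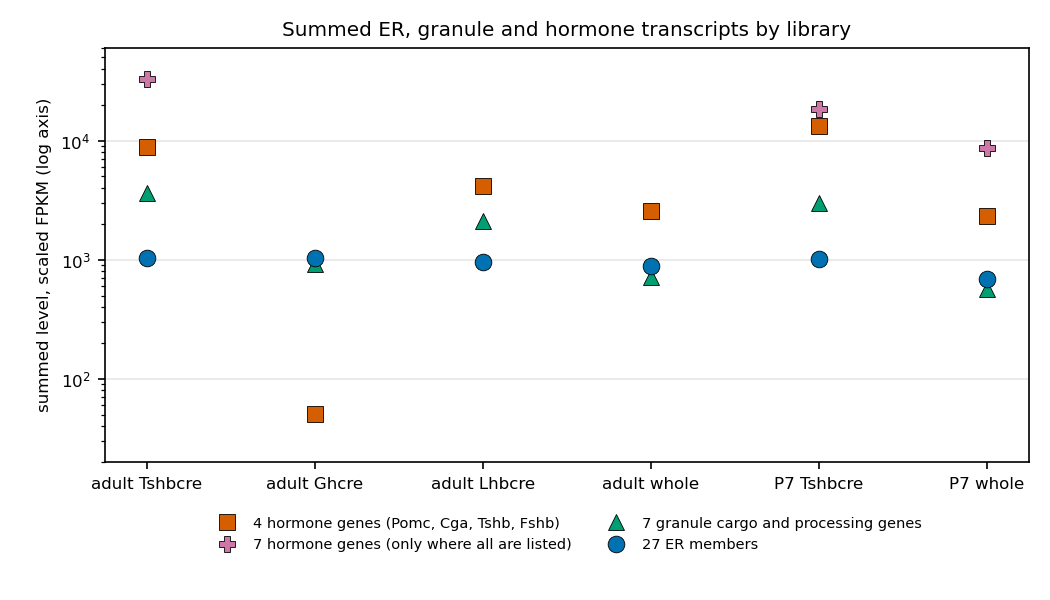
Summed scaled FPKM on a log axis in each library for 4 hormone genes, 7 hormone genes where all are listed, 7 granule genes and the 27 ER members in every table. The ER sums lie between 689 and 1032, while the 4 hormone genes lie between 50.5 and 13159. The 50.5 is that of Ghcre, whose own hormone has no value here. The 7 hormone genes lie between 8753 and 33070 in the libraries that list them all.

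For single genes, 2-fold higher or lower means a difference of at least 1 in log2(scaled FPKM + 1), where at least 1 scaled FPKM was reached in either library. This scale understates differences of low genes. In adult Tshbcre cells against the adult whole gland, 0 of the 37 members that passed this minimum were 2-fold higher and 2 were lower. Of all genes, 9.13% were higher and 11.4% lower, or 4.91% and 6.67% of those above 0 in both libraries. The 2 lower members were Edem2, at 3.67 against 9.44, and Derl2, at 1.45 against 4.57. With nameless assembled transcripts added by length they were 10.7 against 16.2 and 5.21 against 7.00, so neither was then 2-fold lower. Among the folding genes the direction was mixed: log2 differences were 0.38 for Hspa5, 0.62 for Hsp90b1, 0.62 for Calr and 0.69 for Pdia3, and -0.66 for P4hb, -0.25 for Manf and -0.82 for Hyou1. Pdia4 differed by 0.10, Xbp1 by -0.25, Atf4 by -0.38, Ern1 by -0.28, Eif2ak3 by -0.31 and Atf6 by -0.51, and Ddit3 is listed at 0 in both libraries. Of these, Pdia4 turned to -0.03 with FPKM as deposited and Ern1 to 0.08 with nameless transcripts added by length. The median over the 37 was -0.19, against -0.02 over all genes.

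In Ghcre cells 1 of 27 members was 2-fold higher than in the adult whole gland and 1 was lower, against 12.7% and 15.4% of all genes, or 7.37% and 10.7% of those above 0 in both. The higher gene was Ddit3, described above, and the lower was Syvn1, at 6.35 against 18.5. The median over the 27 was 0.15, against 0.00 over all genes. Hspa5 differed by 0.12, Hsp90b1 by 0.15, Xbp1 by -0.04, Atf6 by 0.15, Atf4 by 0.57 and Ern1 by 0.68. This comparison depends on scaling more than the others: the median of all genes was at -0.46 with FPKM as deposited and at 1.08 with libraries set to equal sums. The signs of Hspa5, Hsp90b1, Xbp1 and Atf6 turned with one or the other. Relative to all genes, the member median ran from 0.08 to 0.44 over these scalings.

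In Lhbcre cells 5 of 37 members were 2-fold higher than in the adult whole gland and 2 were lower, against 13.6% and 15.3% of all genes, or 8.73% and 9.33% of those above 0 in both. The higher ones came from different roles: Calr at a log2 difference of 1.29, Ssr4 at 1.34, Derl3 at 1.50, Eif2ak3 at 1.28 and Ppp1r15a at 1.01. The lower ones were the paired degradation genes Sel1l, at -2.56, and Syvn1, at -1.22. With nameless transcripts added by length, Sel1l and Eif2ak3 were no longer 2-fold apart. The other 5 had none added in either library, so this setting could not change them. Pdia4 was higher by 0.84, Hsp90b1 by 0.64 and Atf4 by 0.22, while Hspa5 differed by 0.17, Ern1 by 0.05, Atf6 by -0.20 and Xbp1 by -0.44, of which Hspa5, Ern1 and Atf6 changed sign under another scaling. The member median was 0.04, and relative to all genes it ran from 0.01 to 0.09 over the scalings. Cytosolic and mitochondrial chaperones, which serve outside the ER, had a median of 0.52 in this library, with 3 of 17 2-fold higher, among them Dnaja1 at 21.7 against 7.20.

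In P7 Tshbcre cells 4 of 35 members were 2-fold higher than in the P7 whole gland and 2 were lower, against 11.7% and 16.1% of all genes, or 7.45% and 10.5% of those above 0 in both. The higher ones were Sdf2l1, at 16.4 against 5.72, Pdia3, at 185 against 87.3, the X-linked Ssr4, at 64.0 against 22.9, and Ern1, at 5.99 against 2.39. Calr, at a log2 difference of 0.99, and Manf, at 0.76, came next. The lower ones were Creb3l2, at 3.63 against 9.21, and Edem1, listed at 0 against 2.54. With nameless transcripts added by length Creb3l2 changed sides, at 83.0 against 14.6, and the other 5 remained 2-fold apart. Sdf2l1 and Ssr4 had none added in either library, so this setting could not change them, and Edem1 had none added in the sorted cells. Of all 38 members, 27 had a higher and 10 a lower value in the sorted cells, and 23 were higher and 7 lower with deposited bounds that did not overlap. These counts were not made over all genes, whose median was -0.01, and the signs depend on the scaling. The member median was 0.32 and turned to -0.21 with FPKM as deposited, when the median of all genes was -0.47. Relative to all genes it was 0.26 to 0.34 over the scalings. Hspa5 differed by 0.70, Hsp90b1 by 0.73, Pdia4 by 0.25, Eif2ak3 by 0.61, Atf6 by 0.37, Atf4 by 0.13 and Xbp1 by -0.17, and Pdia4, Atf6 and Atf4 turned negative with FPKM as deposited and Xbp1 positive, at 0.21, with equal sums.

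Cells that a whole gland holds and a sort removes differed in the same comparisons. Endothelial markers, 5 genes listed in 5 tables, summed to 108 and 78.2 in the adult and P7 whole glands and to between 3.52 and 28.9 in the Tshbcre and Lhbcre libraries. The 7 mesenchymal and pericyte markers summed to 114.5 and 274 in the whole glands and to between 11.8 and 28.3 in these sorted libraries. The 5 erythroid markers summed to 1065 and 1939, against 102 to 202, and the 7 macrophage markers to 68.2 and 31.1, against 3.16 to 41.1. In the P7 Tshbcre library 2 of 6 endothelial markers are listed at 0. Their part in the member differences was not tested.

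**Figure D4:**
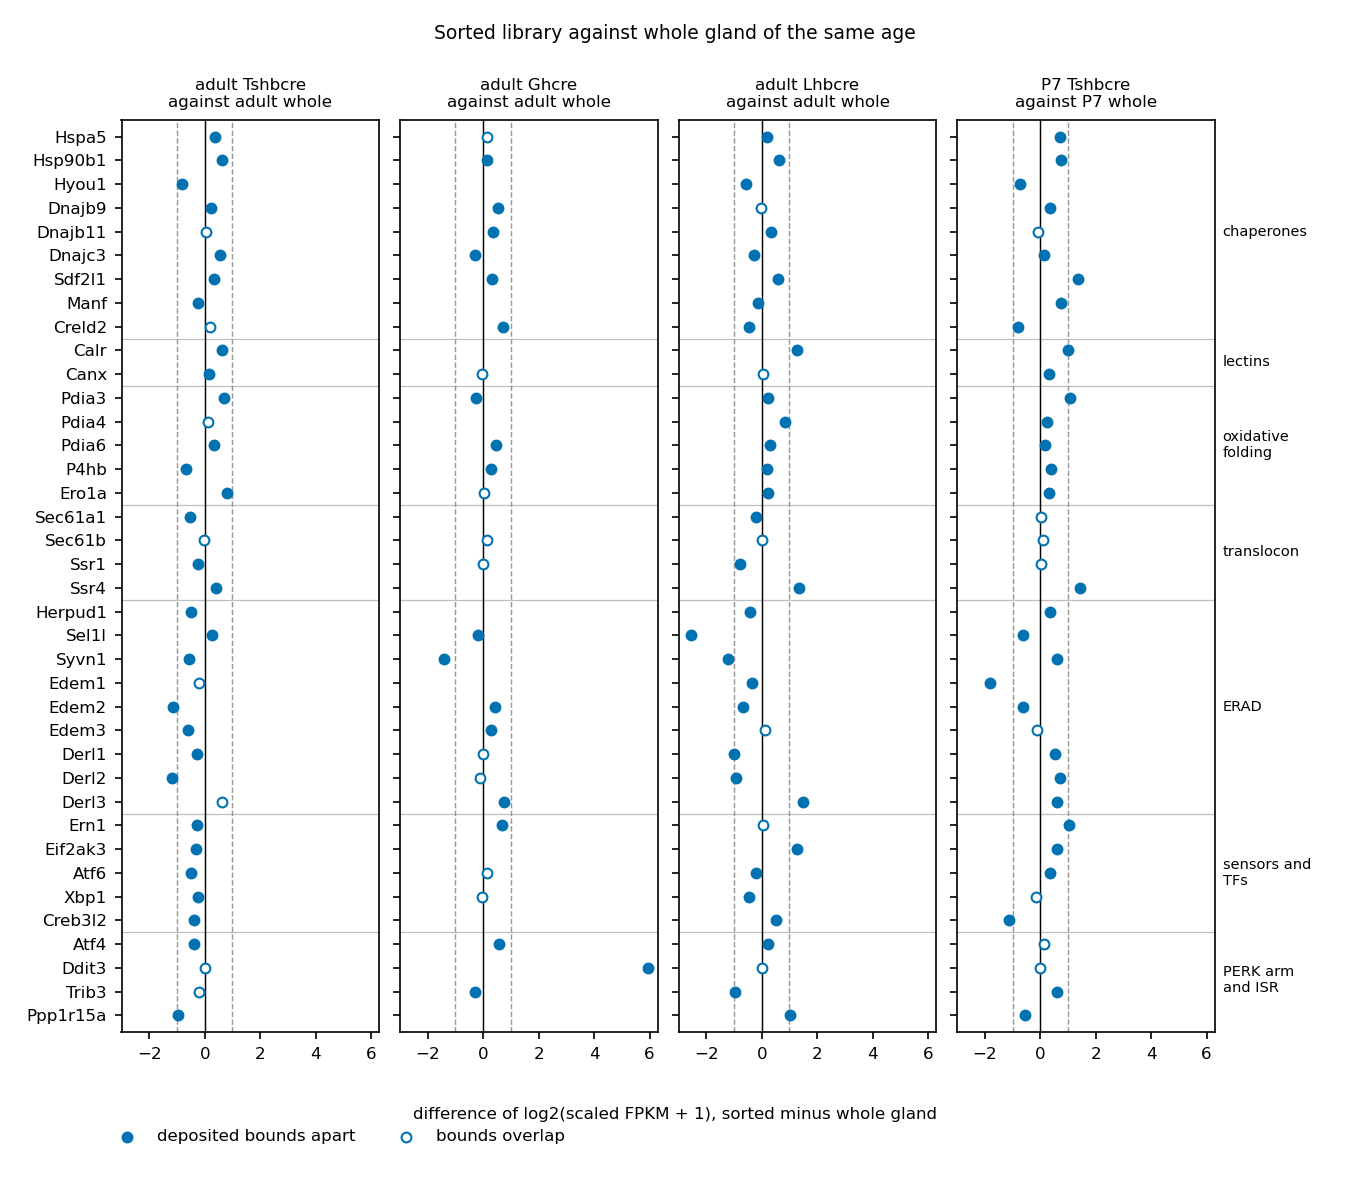
Difference of log2(scaled FPKM + 1) between each sorted library and the whole gland of its age for the 38 members, with filled points where the deposited bounds of the libraries do not overlap and dashed lines at 2-fold. Ghcre has no point for the 11 members its table does not list, and its point at 5.93 is Ddit3.

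Further genes of the secretory pathway were followed in lists by function, and their counts in P7 Tshbcre cells are to be read beside the 11.7% higher and 16.1% lower of all genes. Of 15 N-glycosylation genes, 14 passed the minimum, 3 were 2-fold higher in P7 Tshbcre cells than in the P7 whole gland and 0 lower, with a median of 0.52. Stt3a, a catalytic subunit of the oligosaccharyltransferase, was at 19.6 against 3.38, its partner Ddost at 83.0 against 40.6, and Krtcap2, named after its values were seen, at 61.0 against a listed 0. Rpn2, at 89.9 against 44.7, was just under 2-fold. Of 13 other folding enzymes that passed, 3 were higher and 0 lower: Fkbp11 at 15.3 against 3.75, Fkbp2 at 35.7 against 12.8 and Sil1, the exchange factor of Hspa5, at 27.9 against 12.1. Fkbp2, a prolyl isomerase of the ER, was also above the adult whole gland in the adult sorted libraries, at 34.0, 40.4 and 46.5 against 17.0. Of 14 other degradation genes, 1 was higher and 1 lower at P7, and the higher one, the lectin Erlec1, was at 48.1 against 23.3. In Lhbcre cells Erlec1 was instead at 5.31 against 29.9 in the adult whole gland. Of 18 other entry genes that passed at P7, 0 were higher and 1 lower. ER to Golgi transport had 1 higher and 2 lower of 18. Among COPII genes, Sec24d was lower, at 1.94 against 13.1, as was Sar1a, at 9.48 against 30.5, and Sec24a was higher, at 6.03 against 2.09. The other integrated stress response genes had 3 higher and 2 lower of 18. The lower ones were the serine synthesis genes Phgdh, at 0.338 against 7.96, and Psat1, at 1.70 against 6.53. Among the higher ones was Mthfd2, at 7.22 against 2.37. The other sensors had 1 higher and 0 lower of 9.

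Against the adult whole gland, the 15 N-glycosylation genes had 0 higher and 0 lower in Tshbcre cells and 0 higher and 2 lower in Lhbcre cells, beside 9.13% higher and 11.4% lower of all genes in the first and 13.6% and 15.3% in the second. Atf6b, a close relative of Atf6, was at 2.37 in adult Tshbcre and 2.06 in Lhbcre cells, against 12.9 in the adult whole gland. Creb3l1, of the same family as Creb3l2, was at 6.76 in Ghcre and 5.95 in Lhbcre cells, against 2.44. Lman1, a cargo receptor for glycoproteins leaving the ER, was at 34.1 in Ghcre cells against 12.4.

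Between ages, the whole gland had lower levels of most members at P7. Of 36 members that passed the minimum, 0 were 2-fold higher and 3 lower at P7 than in the adult, against 9.98% and 9.41% of all genes, or 5.87% and 5.35% of those above 0 in both. The lower ones were Ern1, at 2.39 against 14.0, Creb3l2, at 9.21 against 21.6, and Sdf2l1, at 5.72 against 12.6. With nameless transcripts added by length Creb3l2 was no longer 2-fold lower, at 14.6 against 23.9. Xbp1, the target of Ern1, followed at a log2 difference of -0.99. Of all 38 members, 32 had a lower and 5 a higher value at P7, and 28 were lower and 5 higher with bounds that did not overlap. These counts were not made over all genes, whose median was 0.02, and the signs depend on the scaling. The member median was -0.42 and -0.10 with FPKM as deposited, and relative to all genes it was between -0.44 and -0.41 over the scalings. Hspa5 differed by -0.33, Hsp90b1 by -0.18 and Calr by -0.004, and they turned to 0.03, 0.18 and 0.36 with FPKM as deposited. Pdia4 differed by -0.31, or 0.05 with FPKM as deposited, and Atf6 by -0.60, while Eif2ak3 differed by 0.41 and Atf4 by 0.39, of which Eif2ak3 turned to -0.97 with nameless transcripts added by length. Among the related lists, the oligosaccharyltransferase subunit Stt3a was at 3.38 at P7 against 22.5, and Asns, an Atf4 target, at 2.42 against 11.9. The mesenchymal markers were higher in the P7 whole gland, as given above, and their part was not tested.

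Between adult and P7 Tshbcre cells the 2-fold differences lay in 4 of the 7 roles, at shares near those of all genes. Of 36 members that passed, 3 were 2-fold higher and 5 lower at P7, against 11.5% and 12.9% of all genes, or 5.98% and 7.13% of those above 0 in both. The higher ones were Eif2ak3 at 1.33, Derl2 at 1.32 and the X-linked Ssr4, at 64.0 against 31.5 scaled FPKM. The lower ones were Creb3l2 at -1.91, Edem1, listed at 0 at P7, at -1.78, Sel1l at -1.64, Dnajc3 at -1.34 and Creld2 at -1.12. Only Edem1 of these 8 remained 2-fold apart with nameless transcripts added by length, and Creb3l2, Sel1l, Creld2 and Eif2ak3 changed sign. Hspa5 differed by -0.01, Hsp90b1 by -0.07, Pdia4 by -0.16, Atf6 by 0.28 and Calr by 0.36, while Ern1 differed by -0.82, Xbp1 by -0.91 and Atf4 by 0.90. With libraries set to equal sums, Hspa5, Hsp90b1 and Pdia4 turned to 0.45, 0.39 and 0.28. Over the same ages the 38 members at P7 were 1.04 times the adult value and the PERK arm 1.90 times. The glycoprotein hormones were 1.25 times and all 7 hormones, with Gh and Prl, 0.554 times. The sensors and transcription factors were 0.589 times, which turned to 1.16 with nameless transcripts added by length, when Creb3l2 was at 83.0 against 36.6. Ern1 and Xbp1 were lower at P7, and Atf4 higher, in both the whole gland and the Tshbcre cells, pairs that share no library. These signs held under each scaling tried for Ern1 and Xbp1 and for Atf4.

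**Figure D5:**
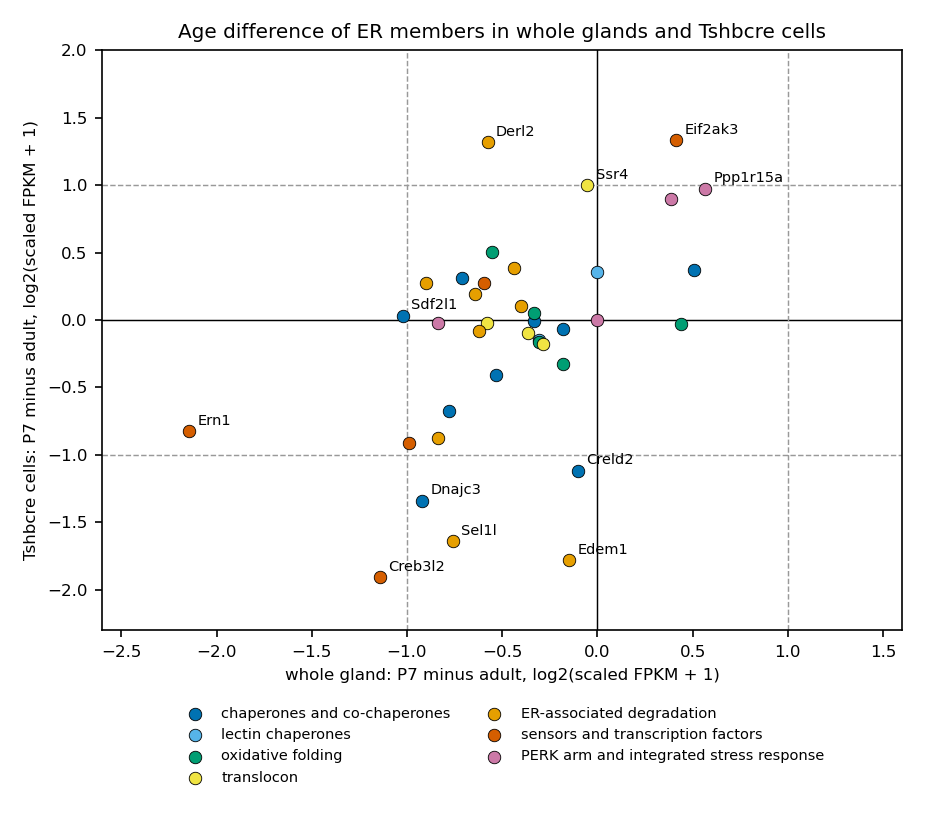
Difference of log2(scaled FPKM + 1) between P7 and adult for each member in the whole gland (horizontal) and in Tshbcre cells (vertical), coloured by role, with dashed lines at 2-fold. Ern1 and Creb3l2 lie towards the lower left, and Derl2 and Eif2ak3 lie above the upper line.

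Members with the ERSE did not move as 1 group. Their median was 0.38 in adult Tshbcre cells against the whole gland, 0.14 in Ghcre cells, 0.17 in Lhbcre cells and 0.46 in P7 Tshbcre cells. Members whose promoter lacked it had medians of -0.25, 0.28, 0.13 and 0.19. Within the ERSE group, Calr was 2-fold higher and Syvn1 2-fold lower in the same Lhbcre library, although both windows shown above hold the full element.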

How the data were processed

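RNA from sorted or whole pituitary cells was sequenced after ribosomal RNA depletion, per the labels' protocols, in 6 libraries, 1 per group. The submitters' processing notes name FastQC, Bowtie2, Cufflinks and the build mm39 and give no version of the tools. The authors deposited 1 isoform table per library with FPKM and its bounds for each transcript. The coverage (signal) that the authors deposited beside each FPKM was used only to compare depth: relative to the adult whole gland it was 1.16 (adult Tshbcre), 2.73 (Ghcre), 2.23 (Lhbcre), 1.15 (P7 Tshbcre) and 1.21 (P7 whole gland). Total read counts are not given in the sources used here.

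FPKM was summed over annotated transcripts of each gene name. A name with a transcript whose deposited FPKM status was not OK was given no value, which removed 3 to 13 names per library. Unnamed assembled transcripts were left out, since their share of at least 200 nt differed between libraries from 4.25% to 65.8%. Scale factors ran from 0.758 to 1.42. Differences used a pseudocount of 1, with no test, in Python 3.11.15 with pandas 2.3.3 and numpy 2.4.6, and the code was tested on simulated data. The members and gene lists were chosen with earlier results of these data known. In full are given, by rule, members 2-fold apart and 10 key members in each comparison. Genes of other lists are named from the 3 largest differences among genes above 0 in both libraries and at 5 scaled FPKM or more in one. Of the members, 17 overlap another named gene. The alternatives tried were FPKM as deposited, equal sums, a pseudocount of 0.1, no minimum, genes above 0 in both, and assembled transcripts added. Adding these in proportion to length was chosen after seeing the data. Coordinates of promoter windows are those of GRCm38.p6 and not of mm39. Protein sequences were not used here.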

Additional observations from a re-analysis of the deposited data

Results flagged for a closer look

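Of the 38 members, 17 differed between Tshbcre cells and the whole gland with opposite signs in adults and at P7. In 6 of them the 2 differences were at least 1 apart on the log2 scale, and in 5 of these the deposited bounds also did not overlap at either age. The sixth was Creld2, at 0.19 in adults and -0.82 at P7. With nameless transcripts added by length Creld2 was at 0.39 and 1.43, and the signs no longer opposed. Shares of all genes under the same rules were not computed, so these counts are not read as a trait of the members. The difference between these differences was not tested, since each rests on 4 single libraries. For the 5 it is given below as the P7 value less the adult value in log2(scaled FPKM + 1). Derl2, a channel of ER-associated degradation, had the largest, 1.89, from -1.18 in adults to 0.71 at P7, and 1.17 with nameless transcripts added by length. Ern1, the gene of the sensor IRE1, followed at 1.32, from -0.28 to 1.04, but with nameless transcripts added by length its adult value was 0.08 and the signs no longer opposed. For Syvn1, the ubiquitin ligase, it was 1.18, from -0.57 to 0.61, and 0.81 with FPKM as deposited. P4hb, a disulfide isomerase, had 1.06, from -0.66 to 0.39. With FPKM as deposited its P7 value turned to -0.14 and the difference was 0.66. Manf, which binds Hspa5, had 1.02, from -0.25 to 0.76, and 0.62 with FPKM as deposited.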

How the results depend on the processing

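No paired analysis was possible because each group is 1 library. All values here compare members, and the cause of each shift was not tested. Shares of all genes were made only at the main setting and for genes above 0 in both. The counts at other settings are therefore not read as a trait of the members. With equal sums the median of all genes was itself at 1.08 in Ghcre cells. With FPKM as deposited the member median reversed to -0.38 in Ghcre cells, -0.15 in Lhbcre cells and -0.21 in P7 Tshbcre cells, and was -0.10 between whole glands; 5 members were 2-fold lower in Lhbcre cells, 0 higher and 7 lower in P7 Tshbcre cells, and 1 lower between whole glands. With equal sums, Ghcre had 25 higher, 0 lower and a median of 1.52, Lhbcre 8 higher, 1 lower and 0.47, P7 Tshbcre against its whole gland 9 higher, 1 lower and 0.67, whole glands 1 lower, and Tshbcre ages 5 higher, 3 lower and a median reversed to 0.39. A pseudocount of 0.1 gave 1 higher in adult Tshbcre, 2 higher in Ghcre, 5 lower in Lhbcre and 5 lower between whole glands. With genes above 0 in both, Ghcre had 0 higher and P7 Tshbcre 1 lower. Without a minimum, none of the 18 values moved.

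Adding nameless assembled transcripts as a plain sum gave, for adult Tshbcre, 5 higher and a median reversed to 0.30; for Ghcre 12 higher and 0.89; for Lhbcre 11 higher, 9 lower and 0.23; for P7 Tshbcre 21 higher, 1 lower and 1.34; for whole glands 1 higher, 11 lower and -0.66; and for Tshbcre ages 6 higher, 3 lower and a median reversed to 0.43. Added by length, adult Tshbcre had 1 higher, 0 lower and a median reversed to 0.088, Ghcre 4 higher and 0.33, P7 Tshbcre 8 higher, 1 lower and 0.67, and Tshbcre ages 1 higher and 3 lower. The 27 members per 1000 scaled FPKM of listed hormones were 31.1, 151, 42.6, 54.8 and 78.7 in the libraries adult Tshbcre, Lhbcre, whole adult gland, P7 Tshbcre and whole P7 gland. With the 4 hormones in all tables they were 117, 231, 344, 76.3 and 296, so the order of libraries depends on which hormones are listed.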
